A study of Mus musculus with 24 samples.

Results

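The liver X receptor (LXR) axis of the neonatal mouse organ of Corti (OC) was followed through 8 genes of cholesterol efflux and LXR signalling, Abca1, Abcg1, Nr1h2, Nr1h3, Mylip, Srebf1, Apoe and Lpcat3. They are 8 of the 24454 genes of the count table and were found in it by Entrez ID. They were selected on the pioglitazone results of these same libraries, which were known when the genes were picked, so members are compared between libraries with and without pioglitazone, or over times that include them, as a description without a p-value. Tests with p-values are given for gentamicin, for time in CTRL and GM, and for the interactions that involve gentamicin, and the same limit is kept for the other genes named. The interaction of the drugs also uses the libraries with pioglitazone. OC explants came from 5-day-old C57BL/6N mice of both sexes and were left in culture for 24 h before any drug was added. The control group (CTRL) then received medium alone, the GM group 50 µM gentamicin, an aminoglycoside antibiotic that damages hair cells, the PIO group 10 µM pioglitazone, which activates PPAR-γ, a lipid-sensing nuclear receptor, and the PIO + GM group both drugs. Each treatment lasted 6 h or 24 h, which gave 8 groups of 3 libraries and 24 libraries of total RNA in all. The labels give 6 OCs to a condition and do not say whether the triplicates were separate animals, so p-values measure the spread between these libraries, part of which may be technical. An explant is a mixture of hair cells, supporting cells, mesenchyme and other cells.

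LXRs are nuclear receptors that are activated by oxysterols, the oxidised forms of cholesterol, and that bind DNA as partners of the retinoid X receptors. Their best known targets move cholesterol out of the cell. ABCA1 and ABCG1 are transporters that load cholesterol onto lipoproteins, APOE is a lipoprotein component that takes it up, MYLIP (also called IDOL) marks lipoprotein receptors for degradation, SREBP-1c (from Srebf1) drives fatty acid synthesis and LPCAT3 remodels membrane phospholipids. Nr1h2 encodes LXRβ, which most tissues express, and Nr1h3 encodes LXRα, best known from liver, fat, intestine and macrophages. In macrophages PPAR-γ agonists are known to raise LXRα and ABCA1.

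The LXR partners bind a direct repeat of the hexamer AGGTCA with 4 free bases between its 2 copies (called DR4, searched on both strands). RefSeq promoter windows on GRCm38.p6, from 250 bases before a start site to 50 after it, were found for 7 of the 8 genes (12 windows). The best matches, with 3 mismatches to the 12 fixed letters, were 1 site in Abca1 and 1 in Srebf1. They are shown 5′ to 3′ on the strand of the gene, because Abca1 was the member with the largest difference under pioglitazone at 24 h (at 6 h Srebf1 was) and Srebf1 holds a near copy of its site. Capitals mark the match, which lay on the opposite strand in both.
Abca1: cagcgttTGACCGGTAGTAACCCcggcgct
Srebf1: acgacagTGACCGCCAGTAACCCcagcgcg
The Abca1 stretch is chr4:53159940-53159969 on the minus strand, with the match 67 to 52 bases before the start site. Its match reads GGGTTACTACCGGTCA on the strand of the motif. The Srebf1 stretch is chr11:60210631-60210660 on the minus strand, with the match 182 to 167 bases before 1 of the start sites of the gene, and reads GGGTTACTGGCGGTCA. Matches with at most 3 mismatches were present in 21.9% of the 32851 promoter windows searched and matches with at most 2 in 3.02%. The best match in every window of Nr1h2, Nr1h3, Apoe and Lpcat3 had 4 mismatches and that of Mylip had 5. A match describes letters and is not a binding site, and no window for Abcg1 was used here.

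The libraries held 7211357 to 15548856 gene counts each, so that 3 counts, the smallest number taken as detectable, corresponded to 0.193 to 0.416 CPM (counts scaled to the total of the library), counting error only. All 8 genes passed the filter on low counts. At 6 h, 3 libraries with pioglitazone stood apart by base composition, namely PIO replicate 2 and PIO + GM replicates 2 and 3. In these, genes of at least 55% GC lay 0.77 to 1.05 log2 units below genes under 45% GC relative to the mean library, whereas the other 21 libraries lay between -0.09 and 0.47. Across genes, the log2 fold change under pioglitazone at 6 h followed GC content with a Spearman rho of -0.56, against -0.05 at 24 h. The members span this range, from Abca1 (47.5% GC) and Mylip (49.6%) over Abcg1 (52.7%), Lpcat3 (52.9%), Nr1h3 (56.8%) and Srebf1 (58.4%) to Apoe (59.5%) and Nr1h2 (60.6%). The main results that use the 6 h libraries are therefore also given with the GC trend of each library removed and without these 3 libraries. The markers fixed for hair cells (12 genes) and supporting cells (10 genes) were above 0 in every group.

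Per kilobase of gene length, Apoe was the most abundant member and Nr1h3 the least (plot of levels per length). The mean log2 RPKM (CPM per kilobase of gene) over the 24 libraries was 7.68 for Apoe, 5.79 for Abca1, 5.10 for Srebf1, 4.20 for Nr1h2, 4.16 for Lpcat3, 4.10 for Mylip, 3.15 for Abcg1 and 0.69 for Nr1h3. Apoe was above 99.3% and Abca1 above 94.9% of the 16317 tested genes on this scale, while Abcg1 was in the middle at 51.1% and Nr1h3 above 20.9%. The LXR message of these explants was thus mostly Nr1h2, whose level per length exceeded that of Nr1h3 in every library. The order Nr1h2, Lpcat3 and Mylip was not separated from library to library, since Nr1h2 was above Lpcat3 in 15 of 24 libraries and Lpcat3 above Mylip in 14 of 24. Abca1 was above Srebf1 in 22 of 24 libraries, and the other neighbours kept their order in all 24.

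**Figure D1:**
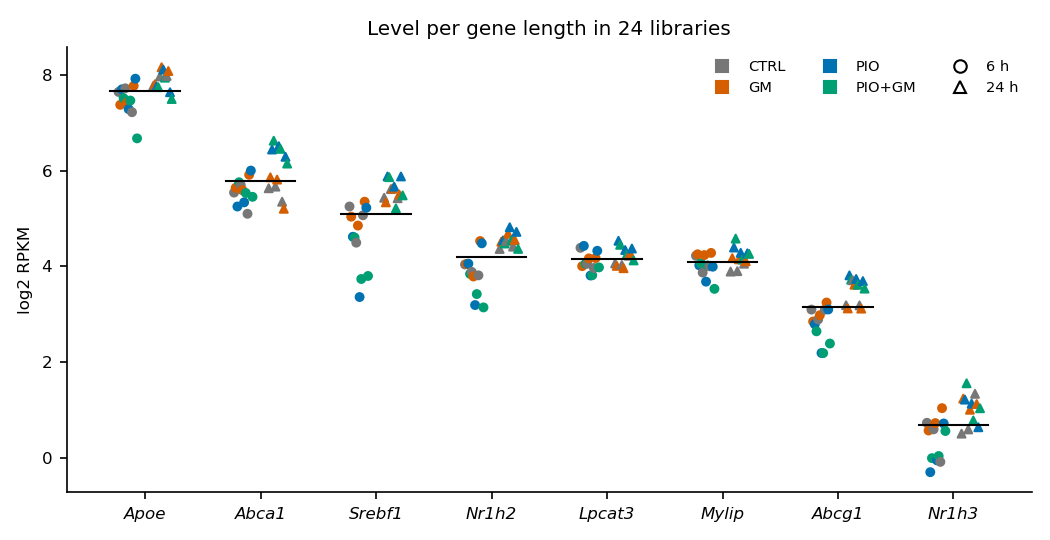
Level per gene length (log2 RPKM, y axis) of the 8 genes in each of the 24 libraries, coloured by treatment, with circles for 6 h, triangles for 24 h and a bar for the mean over libraries. Apoe lies highest at a mean of 7.68 and Nr1h3 lowest at 0.69, while Nr1h2, Lpcat3 and Mylip have means of 4.10 to 4.20.

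At 24 h the efflux transporter Abca1 was higher with pioglitazone whether or not gentamicin was present, and it was the only one of the 8 genes whose pioglitazone and pioglitazone-free libraries did not overlap (plot of CPM by group). Its TMM-normalised CPM were 509.8, 522 and 419 in CTRL, 597, 578 and 378 in GM, 894, 939 and 805 in PIO and 1016, 903 and 729 in PIO + GM. The lowest library with pioglitazone was above the highest without it. The fitted fold was 1.76 (95% limits 1.44 to 2.14; log2 fold change 0.82, SE 0.15) over both gentamicin states, 1.82 (1.37 to 2.40) for PIO against CTRL and 1.70 (1.29 to 2.25) for PIO + GM against GM. At an adjusted p under 0.05 in edgeR's quasi-likelihood test it was the 1 member of 8 called, where 2.79% of all tested genes were called, and 3.16% of all genes were higher without overlap. Because the members were chosen with this contrast known, nothing is read from these counts. In bulk tissue a change in the number of cells of a type and a change in RNA per cell cannot be told apart.

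**Figure D2:**
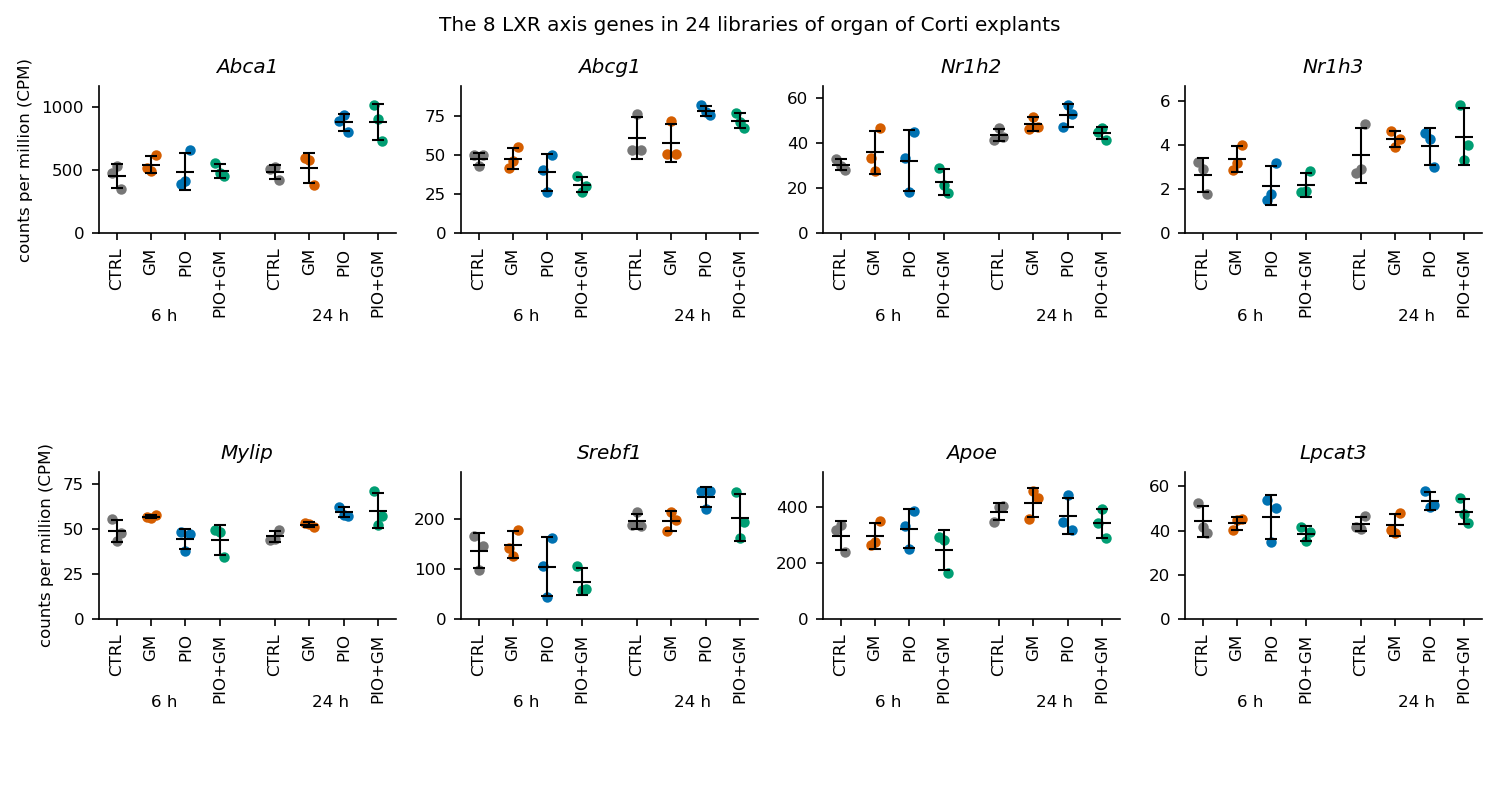
TMM-normalised CPM (y axes from 0, 1 panel per gene) of the 8 genes in the 3 libraries of each group at 6 h and 24 h, with bars for the group mean ± SD. Abca1 at 24 h lies at 729 to 1016 CPM with pioglitazone and at 378 to 597 without it, while the other 7 genes overlap between these libraries.

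Abcg1, which passes cholesterol on to larger lipoproteins, lay at 52.8, 75.9 and 52.7 CPM in CTRL, 50.4, 71.2 and 50.3 in GM, 81.6, 77.4 and 75.1 in PIO and 76.6, 71.1 and 67.3 in PIO + GM at 24 h. Replicate 2 of CTRL and of GM reached into the range with pioglitazone. The log2 fold change was 0.34 (SE 0.14), a fold of 1.27 with limits 1.05 to 1.53. Mylip, the E3 ligase for lipoprotein receptors, was at 44.1 to 49.5 CPM in CTRL and 57.6 to 62.6 in PIO, and at 51.3 to 53.7 in GM and 52.6 to 71.3 in PIO + GM (log2 fold change 0.28, SE 0.10). Lpcat3, the phospholipid acyltransferase, was at 40.7 to 46.6 CPM in CTRL and 50.6 to 57.9 in PIO, and at 38.8 to 48.0 in GM and 43.5 to 54.6 in PIO + GM (0.26, SE 0.11). Groups with and without pioglitazone thus separated for Mylip and Lpcat3 in the absence of gentamicin and overlapped in its presence. With the GC trend removed, Abcg1 (0.40), Mylip (0.32) and Lpcat3 (0.31) were called as well as Abca1 (0.84), 4 of 8, where the share of all genes called was 8.46%, and nothing is read from this count either. Without the 3 GC-shifted 6 h libraries, Abca1 and Mylip were called, where 6.23% of all genes were.

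The receptors themselves, Srebf1 and Apoe showed small or mixed differences with pioglitazone at 24 h. Nr1h2 lay at 41.5 to 46.7 CPM in CTRL, 46.1 to 51.9 in GM, 47.0 to 56.9 in PIO and 41.5 to 47.0 in PIO + GM, a log2 fold change of 0.07 (SE 0.16). Nr1h3 was the member with the fewest counts, 17 to 88 a library over both times. Its 24 h values were 2.72 to 4.98 CPM in CTRL, 3.92 to 4.63 in GM, 3.00 to 4.56 in PIO and 3.33 to 5.82 in PIO + GM, a log2 fold change of 0.10 (SE 0.22) whose limits on the fold were 0.798 to 1.45. Srebf1, the lipogenic transcription factor, was at 187, 212 and 186 CPM in CTRL and 255, 219.9 and 255 in PIO, but at 175, 214 and 196 in GM and 252, 160.4 and 194 in PIO + GM. The 3 PIO libraries were all above CTRL, while PIO + GM spanned the GM values (0.32, SE 0.31, without and 0.05 with gentamicin). Apoe was the single member with a fitted value below 0, at 347, 399 and 402 CPM in CTRL, 356, 456 and 431 in GM, 344, 440.4 and 317 in PIO and 342, 392 and 287 in PIO + GM (-0.17, SE 0.15). Over the 8 genes the median log2 fold change was 0.22, beside -0.00 over all tested genes, and 7 of 8 were above 0, beside 49.6% of all genes.

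Group by group at 24 h, in the values the selection used and so as a description, Abca1, Nr1h2, Mylip, Srebf1 and Lpcat3 were higher in PIO than in CTRL without overlap, 5 of 8 where 11.7% of all genes were. For PIO + GM against GM, Abca1 alone was, where 9.84% of all genes were. None of the 8 was called in either comparison, where 0.153% and 0.11% of all genes were, and DESeq2 called 1 member in each, where it called 0.993% and 0.625% of all genes. In GM-free tissue the fitted values were 0.86 (SE 0.21) for Abca1, 0.37 for Abcg1, 0.26 for Nr1h2, 0.37 for Mylip, 0.31 for Lpcat3 and -0.06 for Apoe. In GM-treated tissue they were 0.77 (SE 0.21), 0.32, -0.12, 0.20, 0.20 and -0.29 in the same order.

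The markers of other cells moved with pioglitazone at 24 h in part. Summed over 8 mesenchyme markers, the libraries lay at 5372 to 6222 CPM in CTRL, 5199 to 7510.5 in GM, 3733 to 4754 in PIO and 3649 to 4349 in PIO + GM. Of the 8, Col3a1 (-0.93), Dcn (-0.88) and Pdgfra (-0.41) were called lower, where 2% of all genes were. The other 5 were not called, with Pou3f4 (0.14) and Tbx18 (0.10) above 0, and collagen genes make up much of the sum. Summed over 12 macrophage markers, the ranges overlapped at 124 to 169 CPM in CTRL, 122 to 249 in GM, 87.1 to 239 in PIO and 79.6 to 229.6 in PIO + GM, and no marker of either list was at 0 in a group. The part of these shifts in the values of the members was not tested.

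**Figure D3:**
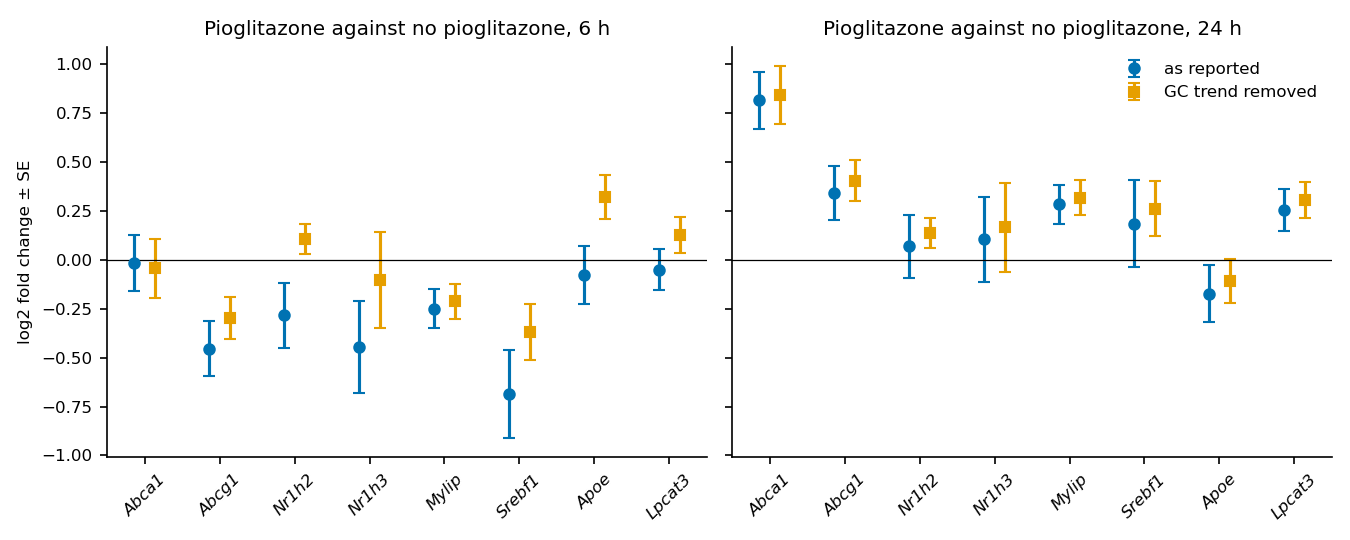
Log2 fold change with pioglitazone over both gentamicin states (y axis, ± SE) for the 8 genes at 6 h (left) and 24 h (right), as reported (circles) and with the GC trend of each library removed (squares). As reported, Abca1 lies at 0.82 and the other 7 between -0.17 and 0.34 at 24 h, whereas at 6 h all 8 lie between -0.69 and -0.02, and with the trend removed Nr1h2, Apoe and Lpcat3 lie above 0 at 6 h.

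At 6 h no member was higher with pioglitazone. All 8 fitted values were below 0, where 47.6% of all genes were above it, with a median of -0.27 beside -0.02 over all genes. Abca1 did not separate at this time, with 479, 534 and 352 CPM in CTRL, 514, 496 and 620.0 in GM, 391, 416 and 659 in PIO and 556, 476 and 450.3 in PIO + GM, a fold of 0.989 (limits 0.812 to 1.20). Abcg1 (-0.45, SE 0.14) and Srebf1 (-0.69, SE 0.22) were called lower, 2 of 8, where 16.1% of all genes were called in either direction and 6.83% lower. The members were chosen with the pioglitazone results known, so nothing is read from these calls. Srebf1 had 165, 97.6 and 145 CPM in CTRL, 142, 125 and 177 in GM, 106, 44.3 and 162 in PIO and 105, 57.5 and 60.1 in PIO + GM. Its 3 lowest values came from the 3 GC-shifted libraries. Abcg1 had 49.6, 43.0 and 49.6 CPM in CTRL, 41.7, 45.7 and 54.97 in GM, 40.1, 26.4 and 49.7 in PIO and 36.2, 26.3 and 30.3 in PIO + GM, and again its 3 lowest values were those of the same libraries. In this contrast all 8 Schwann cell markers were below 0 (3 called, median -0.62), as were 11 of 12 macrophage markers (none called, median -0.22). The Schwann cell sums overlapped at 989 to 2130 CPM in CTRL, 1110.2 to 2855 in GM, 557 to 1684 in PIO and 449 to 2596 in PIO + GM, and the part of these shifts was not tested.

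These 6 h values depended on how the base composition of the libraries was treated (plot of levels against the GC trend). With the GC trend removed Srebf1 stood at -0.37 and Abcg1 at -0.30, and Nr1h2 (0.11), Apoe (0.32) and Lpcat3 (0.13) changed sign, so that no member was called where 11.9% of all genes were. Without the 3 libraries Srebf1 stood at -0.26, Abcg1 at -0.24 and Nr1h2 at 0.03, and again no member was called, where 0.733% of all genes were. In PIO + GM against GM at 6 h, the comparison with 2 of the 3 libraries on 1 side, Abcg1 (-0.62), Nr1h3 (-0.63), Mylip (-0.37) and Srebf1 (-0.99) were lower without overlap, 4 of 8 where 11.4% of all genes were. None of them was called, where 1.32% of all genes were, and nothing is read from these counts either. In PIO against CTRL at 6 h all members overlapped and none was called, where 0.337% of all genes were, with values from -0.38 for Srebf1 to 0.11 for Apoe. The Srebf1 value was -0.85 without PIO replicate 3 and -0.018 without PIO replicate 2.

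**Figure D4:**
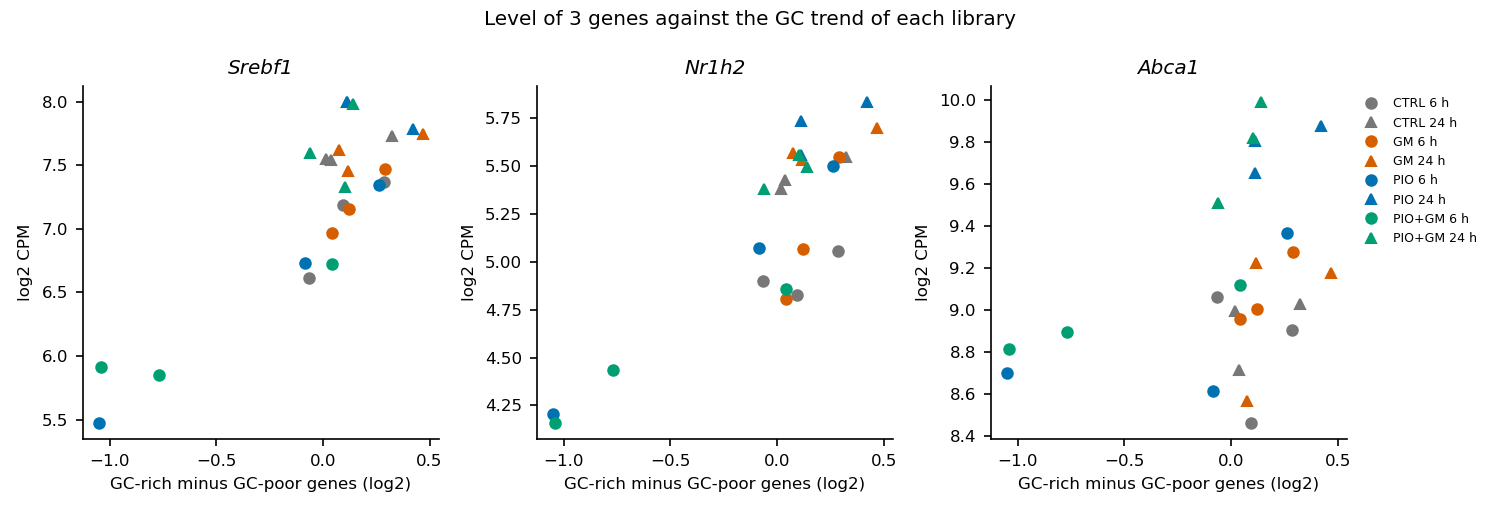
Level (log2 CPM, y axes) of Srebf1, Nr1h2 and Abca1 in each of the 24 libraries against the log2 difference between GC-rich and GC-poor genes in that library (x axis), coloured by treatment, with circles for 6 h and triangles for 24 h. The 3 libraries at -1.05 to -0.77 hold the 3 lowest values of Srebf1 (5.47 to 5.91) and of Nr1h2 (4.16 to 4.44), while Abca1 lies at 8.70 to 8.90 in them, inside the range of the others.

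The difference between the pioglitazone effect at 24 h and that at 6 h rests on the same libraries and is also only described. It was 0.83 (SE 0.20) for Abca1, 0.80 (SE 0.20) for Abcg1, 0.87 (SE 0.32) for Srebf1, 0.53 (SE 0.14) for Mylip and -0.10 for Apoe on the log2 scale. After removal of the GC trend it was 0.89 for Abca1, 0.70 for Abcg1, 0.63 for Srebf1 and 0.53 for Mylip, and without the 3 GC-shifted libraries 0.70, 0.58, 0.44 and 0.40. None was called, where 0.00613% of all genes were. For Abca1 the effect was 0.82 at 24 h and -0.02 at 6 h. DESeq2 called 3 members, where it called 0.282% of all genes, and nothing is read from this count.

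Gentamicin gave no detected change in any of the 8 genes, a contrast that the choice of members did not use. Averaged over both pioglitazone states, none was called at 6 h, where 0.0123% of all genes were, and none at 24 h, where 0.313% were. None reached an unadjusted p under 0.05 at either time (edgeR's quasi-likelihood test), beside 2.12% and 2.83% of all genes, and DESeq2 called none, where it called 0.3% and 0.594% of all genes. For Abca1 the fold with gentamicin was 1.04 at 24 h with 95% limits of 0.852 to 1.26, and its log2 fold change at 6 h was 0.14 (SE 0.14). No member was called at 6 h after removal of the GC trend or without the 3 GC-shifted libraries. For Apoe the limits at 24 h were 0.82 to 1.22. An exact two-sided permutation test of 6 against 6 libraries that exchanged labels across the pioglitazone states, 16 tests in all, gave p from 0.264 to 0.978, and Benjamini-Hochberg adjusted values of at least 0.778. With labels exchanged only within a pioglitazone state (400 arrangements, added after seeing the data), the exact permutation p was 0.215 to 0.98 and the adjusted values were at least 0.624. The signs of Srebf1 and Nr1h2 at 6 h and of Abca1 and Apoe at 24 h turned on single libraries. Mylip was the member with the most regular order under gentamicin alone. It lay at 55.6, 43.5 and 47.7 CPM in CTRL and 56.8, 56.1 and 57.9 in GM at 6 h, and at 44.1, 44.4 and 49.5 against 53.7, 52.7 and 51.3 at 24 h. The 3 GM libraries were above the 3 CTRL libraries at both times, where 3.14% and 2.6% of all genes were. The log2 fold changes, 0.22 (SE 0.14) and 0.19 (SE 0.14), had unadjusted p of 0.133 and 0.185 in edgeR's quasi-likelihood test.

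Whether pioglitazone acted differently with gentamicin was tested by the interaction of the drugs. The interaction reached an adjusted p of 1.00 for every member at both times (edgeR's quasi-likelihood test, Benjamini-Hochberg), and it called 0% of all genes, with 1.8% at 6 h and 1.21% at 24 h at an unadjusted p under 0.05. For Abca1 at 24 h the ratio of the folds was 0.938 with 95% limits of 0.633 to 1.39, so a modest difference was not detectable. Every member had a fitted interaction below 0 at both times, where 50.7% of all genes lay above 0 at 6 h and 51% at 24 h. Across genes the interaction followed GC content with a Spearman rho of -0.41 at both times, and its part in these signs was not tested. The most negative value was that of Nr1h2 at 6 h (-0.75, SE 0.33, unadjusted p = 0.0348 in edgeR), the member of highest GC content. It stood at -0.39 with the GC trend removed and at -0.70 without the 3 GC-shifted libraries. Nr1h2 was lower in PIO + GM than in PIO at 24 h without overlap, where 4.71% of all genes were, but the log2 fold change of -0.24 was close to its SE of 0.23. The gentamicin effects at 24 h and 6 h did not differ beyond error for any member, with an adjusted p of 1.00 (edgeR) and 0% of all genes called.

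The comparison of culture times is described first over all libraries and then tested without pioglitazone. From 6 h to 24 h, over the 4 treatments and so including the libraries with pioglitazone, 7 of the 8 genes were called higher, where 62.6% of all genes were called and 31.9% were called higher. The log2 fold change was 0.90 (SE 0.16) for Srebf1, 0.71 (SE 0.10) for Abcg1, 0.66 (SE 0.16) for Nr1h3 and 0.65 (SE 0.12) for Nr1h2. It was 0.43 (SE 0.10) for Abca1, 0.38 (SE 0.10) for Apoe and 0.16 (SE 0.07) for Mylip, whereas Lpcat3, with 0.12 (SE 0.07), was not called. Nothing is read from these calls, since the 24 h libraries with pioglitazone that enter them are those on which the genes were selected. The median over the 8 genes was 0.54, beside 0.02 over all genes. The ranges of the 12 libraries at each time overlapped for all 8 genes.

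The fitted value was smaller for 7 of the 8 genes in CTRL than in PIO, and that difference, over both gentamicin states, is described above. In CTRL alone Abca1 had 0.09 (SE 0.20) and Mylip -0.09, and no member was called, where 28% of all genes were. Nr1h2 alone had an unadjusted p under 0.05 there, and DESeq2 called none, where it called 30.7% of all genes. Nr1h2 was called after removal of the GC trend (0.47) and without the 3 GC-shifted libraries (0.53), where 35.8% and 35.5% of all genes were. Abcg1, Nr1h2, Srebf1 and Apoe were higher at 24 h without overlap in CTRL, 4 of 8 where 24.1% of all genes were. Nr1h2, for example, went from 33.1, 29.7 and 28.3 CPM to 41.5, 46.7 and 42.9 (0.53, SE 0.23; adjusted p = 0.0999 in edgeR), and Srebf1 had 0.52 (SE 0.32; adjusted p = 0.233 in edgeR). In GM no member was called either, by edgeR, where 24.2% of all genes were, or by DESeq2, where 28.2% were, and Apoe alone had an unadjusted p under 0.05. Apoe (0.42 and 0.49) and Nr1h2 (0.36 and 0.43) were called with the GC trend removed and without the 3 libraries, where 31.9% and 33.2% of all genes were. Fitted on its own libraries, CTRL and GM each had 1 member called, where 27.4% and 26.8% of all genes were. Apoe, with 264, 272 and 348 CPM at 6 h and 356, 456 and 431 at 24 h, was higher without overlap, where 22.7% of all genes were, and Mylip was lower without overlap, where 22.2% were. In PIO 5 members were called higher at 24 h, where 29% of all genes were called, and in PIO + GM 6 were, where 34.6% were. With all libraries, Abca1 had 0.85 in PIO and 0.84 in PIO + GM, and Srebf1 1.22 and 1.44. Without the 3 GC-shifted libraries the counts were 3 and 2, where 20.8% and 25.8% of all genes were called. The cell markers moved with time too. Summed over the 12 macrophage markers, CTRL libraries lay at 67.3 to 149 CPM at 6 h and 124 to 169 at 24 h. Of these markers 11 of 12 were above 0 (median 0.75) and 1 was called, where 28% of all genes were. Summed over 8 Schwann cell markers the CTRL libraries lay at 989 to 2130 and 484 to 819. Of these markers 3 were called lower (median -1.04), where 13.2% of all genes were. The part of these shifts in the values of the members was not tested. With the GC trend removed the values over the 4 treatments were 0.73 for Srebf1, 0.62 for Abcg1, 0.48 for Nr1h3, 0.46 for Abca1 and 0.43 for Nr1h2, all called, while Apoe, at 0.15, was not, and 65.7% of all genes were called. The call for Mylip was lost without the 3 GC-shifted libraries (0.10) and under 21 other settings.

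**Figure D5:**
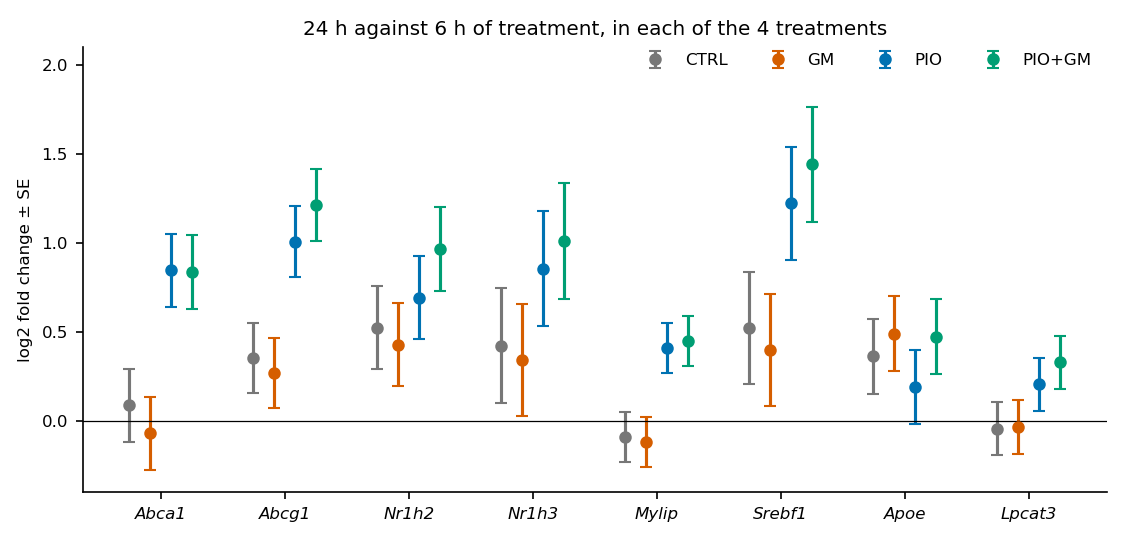
Log2 fold change from 6 h to 24 h (y axis, ± SE) of the 8 genes in each of the 4 treatments. Abca1 lies at 0.09 in CTRL and 0.85 in PIO, Srebf1 reaches 1.44 in PIO + GM, and Apoe is the only gene that lies lower in PIO (0.19) than in CTRL (0.36).

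The RXR partners and other genes of the pathway were read from lists made for the same purpose. Their counts over the 4 treatments with time include the libraries with pioglitazone and, like those of the members, are descriptions from which nothing is read. The 3 retinoid X receptors were called higher at 24 h than at 6 h in this way, Rxra at 0.51, Rxrb at 0.42 and Rxrg at 0.62, where 31.9% of all genes were. In CTRL they had 0.34, 0.27 and 0.56, with adjusted p of 0.343, 0.343 and 0.252 in edgeR's quasi-likelihood test. None of the 3 was called in CTRL, GM or PIO, where 28%, 24.2% and 29% of all genes were. In PIO + GM 2 of the 3 were called, where 34.6% of all genes were. With pioglitazone none of the 3 was called at 24 h, where 2.79% of all genes were. At 6 h Rxra was called lower (-0.55), where 6.83% of all genes were. It was not called with the GC trend removed (-0.24) or without the 3 GC-shifted libraries (-0.19). Of 20 other LXR targets 16 were tested. None was called with pioglitazone at 24 h, beside 2.79% of all genes, 6 were above 0 and the median was -0.08. At 6 h Scd1 (-0.77) and Gramd1b (-0.34) were called lower, 2 of 16 where 6.83% of all genes were. Both were still called after removal of the GC trend (-0.81 and -0.25), and without the 3 GC-shifted libraries they were not (-0.61 and -0.28). With time 8 of the 16 were called higher, among them Mlxipl (0.85) and Rnf145 (0.29), and 2 lower, Acaca (-0.38) and Arl4c (-0.72), beside 31.9% and 30.7% of all genes. Of 15 tested genes of cholesterol transport and handling, none was called with pioglitazone at 24 h (median -0.03), again beside 2.79% of all genes. At 6 h Abca5 (0.45) was called higher, 1 of 15 where 9.25% of all genes were, and was not called with the GC trend removed (0.18) or without the 3 GC-shifted libraries (0.11). With time 8 were called higher, including the lysosomal cholesterol exporters Npc1 (0.24) and Npc2 (0.40) and the transporter Abca7 (0.86), and 3 lower, including Nceh1 (-0.44), again beside 31.9% and 30.7% of all genes.

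Among the lipoprotein receptors, Vldlr was called lower with time over the 4 treatments (-0.48), and in CTRL it had -0.33 (adjusted p = 0.361 in edgeR). Lrp8, the reelin and APOE receptor 2, was called lower with gentamicin at 24 h (-0.73, SE 0.14; adjusted p = 0.0178 in edgeR). It had 31.6, 32.4 and 34.1 CPM in CTRL, 15.5, 24.3 and 15.9 in GM, 26.7, 23.0 and 24.0 in PIO and 15.5, 17.3 and 14.3 in PIO + GM. Within each pioglitazone state the gentamicin libraries were lower without overlap. The call was lost with a filter of 10 counts in every library (adjusted p = 0.0518 in edgeR). It was also lost, with adjusted p of 0.0525 to 0.0758 in edgeR, when any 1 of CTRL replicate 3, GM replicate 1 or 3, PIO replicate 1 or PIO + GM replicate 1 or 3 was left out, and the log2 fold change then stayed between -0.72 and -0.67. The summed hair cell markers moved in the same libraries, with 845 to 1096 CPM in CTRL, 698 to 842 in GM, 633 to 960.0 in PIO and 629.7 to 834 in PIO + GM. Myo6 made up much of the sum, with a mean of 542 CPM in CTRL and 469 in GM. Means fell from 36.5 to 8.55 for Slc26a5, 39.3 to 10.4 for Ocm and 24.1 to 11.9 for Tmc1. Pou4f3, Gfi1 and Slc17a8 had higher means in GM than in CTRL. The part of these markers in the Lrp8 value was not tested.

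The sterol synthesis genes, which SREBP-2 controls, were tested for 19 members. With pioglitazone at 24 h 18 of 19 lay below 0 (median -0.26), where 49.6% of all genes lay above it. None was called, where 2.79% of all genes were. At 6 h 11 of 19 lay below 0 (median -0.03) and 2 were called lower, where 6.83% of all genes were. Srebf2, which encodes SREBP-2, was 1 of these (-0.57). It was still called with the GC trend removed (-0.24) and not without the 3 GC-shifted libraries (-0.23). With time over the 4 treatments 9 were called lower, where 30.7% of all genes were, and 2 higher, where 31.9% were. Among the enzymes Sqle had -0.71 and Msmo1 -1.22 on the log2 scale. Srebf2 had 0.19 and was not called, while Srebf1 had 0.90 over the same interval. Of 10 PPAR target genes tested, 4 were called higher with pioglitazone at 24 h, where 0.791% of all genes were. Angptl4, an inhibitor of lipoprotein lipase, had 7.82, 9.77 and 7.85 CPM in CTRL and 70.3, 107 and 84.1 in PIO (3.01 over both gentamicin states). Pdk4, which restrains pyruvate oxidation, had 1.46 and Cpt1a, of fatty acid import into mitochondria, 1.09. Angptl4 (1.35), Pdk4 (1.23) and Cpt1a (0.82) were also called higher at 6 h, where 9.25% of all genes were, and Abca1 was not called. Without the 3 GC-shifted libraries Angptl4 (1.60) and Cpt1a (0.94) were called and Pdk4 (1.13) was not, where 0.733% of all genes were called. The list was made with earlier results of these data known, so nothing is read from these calls. An order in time between these genes and Abca1 was not tested.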

How the data were processed

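RNA of 24 libraries was sequenced on a total RNA, strand-marking protocol, and per the labels reads were aligned with STAR to mm10. The authors deposited raw read counts per gene by Entrez ID with a gene length. Whether counting used strand is not given in the sources used here. Of 24454 IDs, 24381 matched a symbol. Members and lists were chosen with earlier results of these data known. Counts were fitted in edgeR 4.0.16 (R 4.3.3) with TMM factors, filterByExpr (16317 genes) and 1 mean per group over all 24 libraries, without a block, by the quasi-likelihood F-test with Benjamini-Hochberg adjustment over all tested genes and a threshold of 0.05. Log2 CPM used a prior count of 2, and levels between genes were compared as RPKM. The named genes were all 8 members, the 3 genes most like each, and from each list those called or of largest change. Some list genes are not reported here by name. Tested on simulated data for pioglitazone at 24 h (16078 genes), the fit recovered 85% of 2-fold and 53% of 1.5-fold changes, with 7 false calls. The simulation changed only genes above a minimum level. It had no effect of time, no GC trend of the libraries and no spread shared by same-numbered replicates. These shares are therefore not the power in the real data. Replicates differed by more than counting noise (chi-square per degree of freedom 10.7 to 84.9). Alternatives were DESeq2 1.42.0, other scaling and filters, a replicate block, a smooth GC correction per library (5 spline degrees of freedom) and leaving out libraries. Nr1h3, Srebf1 and Lpcat3 overlap other genes. Of their 76-base windows, 9.18% in Lpcat3 were shared with Emg1, 0.805% in Srebf1 with Rai1 and none in Nr1h3.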

Additional observations from a re-analysis of the deposited data

How the results depend on the processing

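Of 2776 values of the members under alternatives, 2716 counted as the same. For gentamicin and for time over the 4 treatments, this meant the same direction and side of the threshold. For the other contrasts it meant a shift smaller than the pooled SD of the gene within groups. Lost calls, and changes of sign in values that were not called, can therefore be among the 2716. The cause of the changes was not tested. Counts of members called, here and in the next paragraph, moved as follows, and nothing about the members is read from them. The share of all genes called moved with the setting too. For PIO against CTRL at 24 h it was 0.153% in the main fit and 0.993% by DESeq2. For pioglitazone at 24 h it was 2.79% in the main fit and 8.46% with the GC trend removed. Shares for the block and the likelihood ratio test are not given here. A replicate block gave 1 for PIO against CTRL at 24 h, 2 for PIO + GM against GM at 6 h and 1 for the difference of the pioglitazone effect between times. The labels do not say whether replicate numbers pair the samples. Among same-numbered pairs, 9 of 18 at 6 h and 15 of 18 at 24 h correlated above 0.1. Their mean r was 0.11 at 6 h and 0.38 at 24 h, against -0.05 and -0.18 for differently numbered pairs. Same-numbered libraries thus shared part of their spread at 24 h, which the main fit without a block does not model. The likelihood ratio test gave 1 for PIO against CTRL at 24 h and 1 for the difference between times. DESeq2 gave 2 for pioglitazone at 24 h, 1 for PIO against CTRL, 1 for PIO + GM against GM at 24 h, 2 for the latter at 6 h and 3 for the difference between times. Without the filter, or with the 6 h libraries alone, pioglitazone at 6 h gave 0, and the 24 h libraries alone gave 2 at 24 h. Fitted alone, the time comparisons in CTRL, GM and PIO gave 1 each. With the GC trend removed, pioglitazone gave 0 at 6 h and 4 at 24 h, and time gave 1 in CTRL and 2 in GM. With the GC trend removed and the block, the counts were 4 for pioglitazone at 24 h and 1 each for PIO against CTRL at 24 h, PIO + GM against GM at 6 h and at 24 h and the difference between times. Without the 3 GC-shifted libraries, a setting chosen after seeing the data like the block across times, pioglitazone gave 0 at 6 h and 2 at 24 h, and time gave 1 in CTRL, 2 in GM, 3 in PIO and 2 in PIO + GM. Over all genes, pioglitazone at 6 h called 2625 genes, 1936 with the GC trend removed and 123 without the 3 libraries, and at 24 h 456, 1381 and 1046. Ranked by CPM rather than per length, 2 of 8 members kept their rank.

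Leaving out 1 library gave 0 to 4 members for pioglitazone at 6 h and 0 to 4 for PIO + GM against GM at 6 h (4 without PIO + GM replicate 1 at 6 h, 3 without PIO replicate 2 at 6 h). It gave 0 to 1 for time in CTRL (1 without PIO replicate 2 at 6 h), 0 to 1 in GM (1 without PIO + GM replicate 3 at 6 h) and 3 to 6 in PIO (3 without PIO replicate 2 at 6 h or at 24 h). The count for pioglitazone at 24 h was 1 in all of these fits. The gentamicin value crossed 0 for Srebf1 at 6 h (-0.36 to 0.058), Nr1h2 at 6 h (-0.27 to 0.033), Abca1 at 24 h (-0.0061 to 0.15) and Apoe at 24 h (-0.054 to 0.079). The call of Mylip with time was lost in 22 of 33 alternatives.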

Other observations

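The genes whose log2 CPM followed each member most closely over the 24 libraries are given as a description, with Pearson's r. The libraries share treatment, time and base composition, and nothing is said of shared control. Abca1 was followed most closely by Angpt2 (0.82), Hif1an (0.82) and Atg4d (0.80). Abcg1 was followed by Slc22a17, Ptdss2 and Mbtps1 (each 0.95), and Nr1h2 by Emc10, Pced1a and Trp53i13 (each 0.97). Srebf1 was followed by Rgl2, Tmem134 and Zfp740 (each 0.97), Nr1h3 by Il17rb, Scml4 and Rom1 (each 0.86) and Apoe by Islr, AI467606 and Stap2 (each 0.85). Mylip was followed by Pias4 (0.81), Usf1 (0.79) and Actr8 (0.78), and Lpcat3 by Alg1 (0.87), Ap1b1 (0.80) and Retreg2 (0.78). Among the members, Srebf1 was closest to Abcg1 (0.93) and Nr1h2 (0.93), and Abca1 and Apoe were the least alike pair (0.34). With Spearman's rho or with deviations from the group means, the named genes were mostly different ones, with 8 and 3 of the 24 shared, respectively.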
